A study of Mus musculus with 12 samples.

Results

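The deposited count table holds 49492 genes. The genes described here are 7 that carry out DNA translesion synthesis or start it: Polk, Polh, Poli, Rev1, Rev3l, Mad2l2 and Rad18. They were named as a group because Polk had a higher level in UV input libraries, so the level of Polk in UV against control skin chose it and is given below as a description, without a test. The other 6 genes were named for their shared function. The samples were skin of mice labelled UV light (3 samples) and control (3 samples), and each sample gave 2 libraries: one of RNA pulled down with an antibody to N6-methyladenosine (m6A, a methyl mark on mRNA), called IP, and one of RNA before the pull-down, called input. The labels give no strain, age, sex or genotype, no type, dose or timing of UV, and nothing on which samples came from separate animals, so p-values measure only the spread between these samples, which may be technical.

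Translesion synthesis lets DNA replication pass a damaged base that stalls the usual replicative polymerases. RAD18 is the ubiquitin ligase that, with RAD6, marks the sliding clamp PCNA, and the mark recruits polymerases with open active sites. Polymerase η (Polh) copies past the thymine dimers that UV makes, and its loss in people causes the variant form of xeroderma pigmentosum. Polymerase κ (Polk) copies past bulky adducts on guanine, extends mismatched ends and fills gaps during nucleotide excision repair. Polymerase ι (Poli) is a close paralog of Polh. REV1 inserts cytosine and is the scaffold that holds the others, and polymerase ζ, made of the catalytic subunit Rev3l and the adaptor Mad2l2 (REV7), extends DNA beyond the lesion.

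Sequences of 250 bases before annotated transcription starts (RefSeq, build GRCm38.p6) were matched for 5 of the 7 genes. The windows at both Polk starts are shown because Polk had the largest difference between UV and control skin of the 7 genes, and the Polh window because Polh, of the same polymerase family, had overlapping levels in both. The upstream Polk window is chr13:96542580-96542829 and the window at the internal start, inside the first intron of the deposited gene model, is chr13:96519188-96519437. Whether transcription starts at the internal site in these samples was not tested. The Polh window is chr17:46202642-46202891. All 3 lie on the minus strand and are written 5′ to 3′ in the direction of transcription. Capitals mark matches, on either strand, to the p53 half-site consensus, GGGCGG or GCATGCGC.
Polk, upstream start: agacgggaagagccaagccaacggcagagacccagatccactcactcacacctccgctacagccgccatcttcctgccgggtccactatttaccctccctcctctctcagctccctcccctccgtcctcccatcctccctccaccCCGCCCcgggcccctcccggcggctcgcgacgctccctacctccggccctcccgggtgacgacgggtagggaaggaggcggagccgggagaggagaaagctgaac
Polk, internal start: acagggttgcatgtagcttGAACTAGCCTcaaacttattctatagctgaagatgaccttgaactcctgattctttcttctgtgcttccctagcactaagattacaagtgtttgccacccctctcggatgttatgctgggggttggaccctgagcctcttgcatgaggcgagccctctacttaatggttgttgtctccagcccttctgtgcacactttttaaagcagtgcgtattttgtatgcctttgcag
Polh: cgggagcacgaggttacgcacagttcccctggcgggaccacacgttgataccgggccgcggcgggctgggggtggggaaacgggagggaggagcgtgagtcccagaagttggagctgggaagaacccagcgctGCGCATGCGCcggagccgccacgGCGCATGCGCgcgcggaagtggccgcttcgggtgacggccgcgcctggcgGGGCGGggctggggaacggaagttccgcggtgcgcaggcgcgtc

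The upstream Polk window had a GC content of 68.0% and 1 match to GGGCGG, at position -105 from the start. The window at the internal Polk start had a GC content of 46.8% and 1 match to the p53 half-site consensus, at position -231. The Polh window had a GC content of 73.2%, 1 match to GGGCGG at -44 and 4 matches to GCATGCGC, which overlap in pairs because this motif and its reverse complement share letters. Motifs of the same set are common: GGGCGG was in 32.7% of 32851 windows of this length, the p53 half-site in 7.13% and GCATGCGC in 2.26%. CACGTG (6.02% of windows), CCAAT (33.8%), TATAAA (12.4%), TGACGT (6.47%) and TGAGTCA (4.46%) were searched on both strands too and had no match in these 3 windows. A match describes letters only and says nothing on binding.

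The libraries held 24126662 to 92163619 reads in genes. Levels are given as CPM, the reads of a gene relative to the size of its library, with TMM factors that correct the size for a few abundant genes. A gene was called where the Benjamini-Hochberg adjusted p of the edgeR quasi-likelihood test, over all genes tested, was below 0.05. The skin markers were present, with keratinocyte markers summing to 44472 to 68198 CPM in UV input and 17690 to 51622 CPM in control input. Markers of other cell types moved with the UV label in input: sebocyte markers summed to 2101 to 2482 CPM in UV and 1102 to 1474 CPM in control (5 of 6 higher), and fibroblast markers to 5954 to 6996 CPM in UV and 8469 to 9436 CPM in control (3 of 6 lower). Skeletal muscle markers summed to 945 to 2758 CPM in UV and 3292 to 8028 CPM in control (2 of 6 lower), and T cell markers to 1.26 to 2.02 CPM in UV and 8.07 to 10.6 CPM in control (3 of 4 tested lower). Macrophage markers summed to 98.5 to 111 CPM in UV and 114 to 147 CPM in control (2 of 5 lower, Csf1r and Lyz2), and adipocyte markers to 253 to 306 CPM in UV and 198 to 224 CPM in control (1 of 5 higher, Cidec). Of the 8 keratinocyte markers 1 was called, Flg2, lower in UV, while 6 had a positive log2 difference. Of these 8, 4 had an unadjusted p below 0.05 and DESeq2 called 2, Flg2 and Krt5, the latter higher in UV. Of 7 hair shaft and 4 endothelial markers 0 were called by edgeR; 1 and 3 of them had an unadjusted p below 0.05, and DESeq2 called 1 in each list. None of the listed markers averaged 0 in either group. Beside these counts, edgeR called 5.83% of all genes tested in input, 25.1% had an unadjusted p below 0.05 and DESeq2 called 10.7%. Of 15 proliferation markers 0 were called by edgeR, 2 by DESeq2 (Mcm3 and Mcm4), and 9 had an unadjusted p below 0.05; they summed to 1619 to 1888 CPM in UV and 1497 to 1655 CPM in control. In bulk skin, fewer cells of a type and less RNA per cell cannot be told apart, and the part of cell makeup in the results below was not tested.

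Polk had 33.5, 31.8 and 31.5 CPM in the UV input libraries, against 14.1, 12.1 and 13.4 CPM in the control input libraries. The lowest UV library lay well above the highest control library, and each group was tight. The log2 difference, on which Polk was chosen, was 1.29 (SE 0.09), a 2.44-fold higher level in UV input. It lay between 1.19 and 1.35 over the other settings tried, the lowest with scaling by library size only. Of 24099 genes tested, 199 had a larger rise, and 44 did among the 12120 genes with a mean of at least 5 CPM. The IP libraries of the same RNA samples held 47.8, 40.1 and 40.8 CPM of Polk in UV and 20.3, 17.4 and 17.9 CPM in control, a log2 difference of 1.21 (SE 0.11). These are second libraries of the RNA that chose Polk and are no separate check of it.

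Neither Polh nor Poli was called. Polh had 7.33, 8.29 and 6.73 CPM in UV input and 8.22, 7.01 and 7.66 CPM in control input. The groups overlapped, with a log2 difference of −0.04 (SE 0.12, adjusted p = 0.877), and the sign changed when UV 3 or control 1 was left out. Poli had 5.99, 5.05 and 6.78 CPM in UV input and 6.77, 7.82 and 6.62 CPM in control input. Its groups overlapped too, with a log2 difference of −0.24 (SE 0.14, adjusted p = 0.328).

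Rev1 rose in UV skin. It had 34.9, 31.2 and 33.2 CPM in UV input, against 21.8, 24.8 and 23.97 CPM in control input. The groups did not overlap, and the difference was 1.41-fold, or 0.49 on the log2 scale (SE 0.09, adjusted p = 0.0193). Rev1 was the 1 gene called of the 6 other than Polk, while 5.83% of all genes tested were called in either direction. The call ended under several settings: the adjusted p was 0.0507 with library size scaling only, and 0.0978, 0.0532, 0.0760 and 0.0675 without UV 1, UV 2, UV 3 and control 1, with the same sign each time. DESeq2 gave an adjusted p of 0.000717.

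Rev1 shares exon bases with a gene on the other strand. In the deposited gene model 1643 exon bases of Rev1, 26.6% of its length, overlap Eif5b, a translation initiation factor on the opposite strand, and without counting by strand, whose use is not given in the sources used here, reads there cannot be assigned to either gene. Eif5b had 434, 446 and 470 CPM in UV input and 373, 447 and 410 CPM in control input, and its groups overlapped. The 5 Rev1 peaks start at chr1:38088116 or beyond, while Eif5b ends at 38055579, so their windows hold no Eif5b exon. In the window of exons 7 and 8 (chr1:38088116-38092131), input held 10.6, 10.6 and 10.1 CPM in UV and 6.09, 8.17 and 7.01 CPM in control. The first-exon window (chr1:38129502-38129681) held 5.82, 4.30 and 5.11 CPM in UV input and 3.92, 2.77 and 3.05 CPM in control input. The 5 Rev1 windows overlap one another within 2 regions, and all but the first-exon window span introns. Mean UV input in them was 1.45 to 1.56 times mean control input, and the groups were separate in each. These windows come from the same libraries as the gene counts and may hold intron reads. The part of Eif5b reads in the Rev1 difference was not tested.

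Neither subunit of polymerase ζ was called. Rev3l had 62.5, 60.6 and 64.4 CPM in UV input and 64.2, 79.9 and 65.3 CPM in control input, which overlapped. Its log2 difference was −0.16 (SE 0.10, adjusted p = 0.359). Mad2l2 had 2.84, 2.26 and 1.78 CPM in UV input and 3.21, 2.47 and 2.51 CPM in control input. It was the lowest of the 7 genes and the least precise, with a log2 difference of −0.27 (SE 0.21, adjusted p = 0.466).

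Rad18 had 19.96, 22.1 and 19.5 CPM in UV input and 13.7, 19.3 and 15.02 CPM in control input. The groups did not overlap, yet control 2 came close to the UV libraries, and the log2 difference of 0.37 (SE 0.13) missed the threshold with an adjusted p of 0.133. Without control 2 it was 0.51 with an adjusted p of 0.0268.

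In the IP libraries 0 of the 6 genes other than Polk were called by edgeR between UV and control, against 2.5% of all genes tested in either direction; 3 had an unadjusted p below 0.05 and DESeq2 called 1. Over all genes in IP 19.6% had an unadjusted p below 0.05 and DESeq2 called 5.98%. Rev1 had 37.1, 35.0 and 36.3 CPM in UV IP and 24.4, 30.04 and 26.97 CPM in control IP, without overlap. Its log2 difference was 0.41 (SE 0.10, adjusted p = 0.0676, and 0.0227 by DESeq2). Rad18 had 18.7, 22.8 and 19.1 CPM in UV IP and 14.9, 16.0 and 17.7 CPM in control IP, a log2 difference of 0.32 (SE 0.11, adjusted p = 0.167). Rev3l had 64.2, 62.7 and 62.3 CPM in UV IP and 67.0, 76.8 and 74.4 CPM in control IP, a log2 difference of −0.21 (SE 0.08, adjusted p = 0.209). The groups of all 3 genes were separate in IP.

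**Figure D1:**
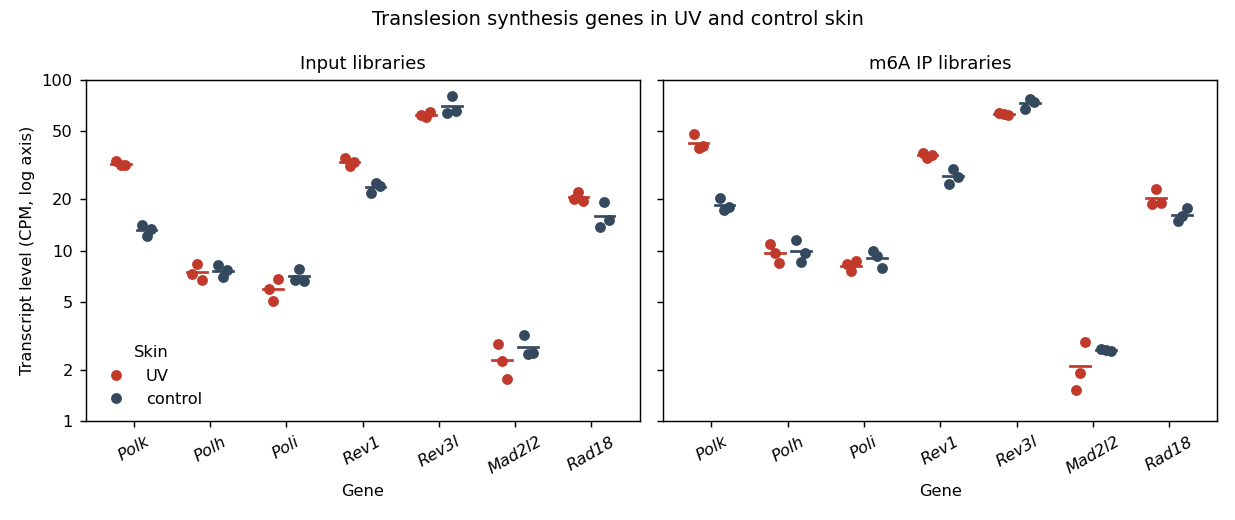
Levels of the 7 translesion synthesis genes in input (left) and m6A IP libraries (right), in CPM on a log axis; each point is 1 library and each bar the mean of 3, with UV in red left of control in grey. The UV and control points of Polk lie far apart in both panels, those of Rev1 and Rad18 lie apart by less, and those of Polh and Poli overlap.

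Divided by gene length, the order of the 7 genes differed between the conditions. In UV input the levels per kilobase of gene model were 7.53 ± 0.24 CPM for Polk, 5.37 ± 0.30 for Rev1, 4.70 ± 0.14 for Rev3l, 3.54 ± 0.24 for Rad18, 2.90 ± 0.31 for Polh, 1.54 ± 0.22 for Poli and 0.874 ± 0.20 for Mad2l2 (SD, n = 3). No neighbours in that order overlapped. In control input the levels per kilobase were 5.25 ± 0.66 CPM for Rev3l, 3.82 ± 0.25 for Rev1, 3.08 ± 0.24 for Polk, 2.97 ± 0.24 for Polh, 2.76 ± 0.50 for Rad18, 1.83 ± 0.17 for Poli and 1.04 ± 0.16 for Mad2l2 (SD, n = 3). There Polk and Polh overlapped, as did Polh and Rad18. Without division by length Polk ranked 3 of 7 in UV input. Before that division, Polk made up 20.04%, 19.7% and 19.2% of the summed CPM of the 7 genes in UV input, against 10.7%, 7.88% and 9.95% in control input. The rank and share of Polk restate the input difference on which it was chosen and are no separate result. The Rev1 length includes the bases shared with Eif5b.

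Genes that work with translesion synthesis were listed separately. Of 48 listed genes 47 were tested between UV and control input, 0 were called by edgeR, 9 had an unadjusted p below 0.05 and DESeq2 called 1 (Pola1). Over all genes tested in input, edgeR called 5.83%, 25.1% had an unadjusted p below 0.05 and DESeq2 called 10.7%. Of the 24 genes for PCNA ubiquitylation and clamp handling, 0 were called and the median log2 difference was 0.09, beside −0.02 over all genes tested. Pcna itself, the clamp, averaged 30.3 ± 0.61 CPM in UV input and 27.9 ± 1.3 CPM in control input (SD, n = 3), with an adjusted p of 0.385 from edgeR. The RAD6 genes Ube2a and Ube2b, partners of RAD18, had log2 differences of 0.04 (SE 0.11) and −0.08 (SE 0.10). Usp1, which removes ubiquitin from PCNA, averaged 93.1 ± 5.5 CPM in UV input and 77.9 ± 3.4 CPM in control input (SD, n = 3), a log2 difference of 0.26 (SE 0.08) with an adjusted p of 0.0918 from edgeR.

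Of 18 other nuclear DNA polymerase genes 0 were called, with a median log2 difference of 0.06. The smallest adjusted p in this list was 0.0734, for Pola1, the catalytic subunit of polymerase α, at a log2 difference of 0.34 (SE 0.10). Pold2 and Pold3, subunits of the replicative polymerase δ that polymerase ζ also carries, had log2 differences of 0.18 (SE 0.12) and 0.02 (SE 0.10). Of 6 listed partners of REV7, 5 were tested and 0 were called, with a median of 0.10; Champ1 came nearest, at 0.31 (SE 0.09, adjusted p = 0.0753). In the IP libraries 0 genes of the 3 lists were called between UV and control, beside 2.5% of all genes tested there.

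**Figure D2:**
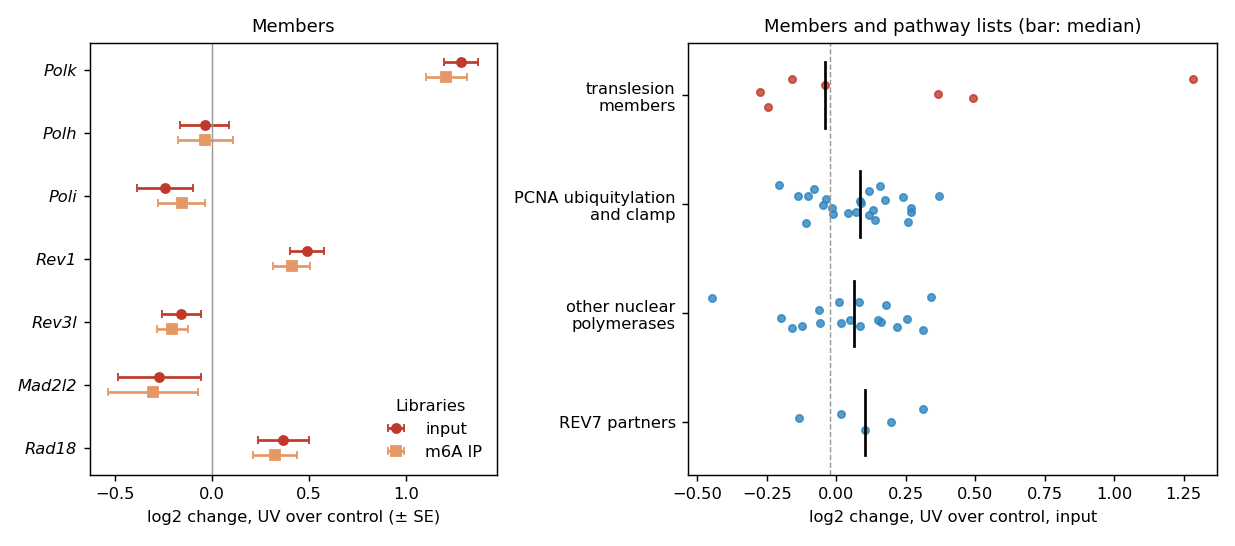
Left, the log2 change of each of the 7 genes, UV over control, with its SE in input (circles) and IP (squares); right, the input log2 changes of the 7 genes and of 3 lists of related genes, 1 point per gene, with the list's median as a bar and the median of all genes, −0.02, as a dashed line. Polk, at 1.29, stands to the right of all other points.

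The transcripts were then compared between IP and input. In UV skin 3 of the 6 genes other than Polk (Polh, Poli and Rev1) were called higher in IP than in input, against 24.7% of all genes tested. In control skin the same 3 and Rev3l, 4 of the 6, were called, against 24.6% of all genes tested. With the sample that IP and input share as a block, 4 of the 6 were called in UV and 5 in control. Of all 25022 genes tested, that block called 7601 higher in IP in UV and 7516 in control. Polk was left out of these counts because its input values, on which it was chosen, enter the ratio. For Polk the log2 ratio of IP to input was 0.71, 0.54 and 0.57 in UV samples and 0.71, 0.74 and 0.64 in control samples, and the ratio was positive in all 6. The fitted value, given as a description, was 0.61 in UV (SE 0.09) and 0.69 in control (SE 0.10).

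Polh, Poli and Rev1 were enriched in both conditions. The fitted log2 ratio of Polh was 0.58 in UV (SE 0.14, adjusted p = 0.00315) and 0.58 in control (SE 0.14, adjusted p = 0.00319). That of Poli was 0.66 in UV (SE 0.13, adjusted p = 0.00106) and 0.57 in control (SE 0.13, adjusted p = 0.0026). For Rev1 it was 0.33 in UV (SE 0.09, adjusted p = 0.00774) and 0.41 in control (SE 0.09, adjusted p = 0.00179). The Rev1 call in UV was lost without UV 2 (adjusted p = 0.0609) or UV 3 (adjusted p = 0.0606). With library size scaling only, edgeR gave Rev1 an adjusted p of 0.155 in UV and 0.179 in control, so both calls were lost. Eif5b, which shares exon bases with Rev1, averaged 450 CPM in UV input and 842 CPM in UV IP. Its control averages were 410 CPM in input and 863 CPM in IP, with input and IP scaled separately. The part of Eif5b reads in the Rev1 ratios was not tested.

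Rev3l had a log2 ratio of 0.22 in UV (SE 0.09, adjusted p = 0.0586) and 0.27 in control (SE 0.09, adjusted p = 0.0227). The control call was lost without control 1 (adjusted p = 0.0514) or control 3 (adjusted p = 0.150), and the UV value was called without control 2 (adjusted p = 0.0150). With the sample that IP and input share as a block, Rev3l was called in UV too (log2 ratio 0.22, adjusted p = 0.00112). Rad18 had 0.18 in UV (SE 0.13, adjusted p = 0.252) and 0.23 in control (SE 0.13, adjusted p = 0.154), and the control value was called with the sample block (adjusted p = 0.0169) and without control 2 (adjusted p = 0.0322). Mad2l2 scattered from −0.69 to 0.90 in UV samples and from −0.08 to 0.29 in control samples, with fitted values of 0.10 (SE 0.23) and 0.14 (SE 0.23).

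These ratios depend on scaling. Library size scaling without TMM put the median log2 ratio of all genes at −0.16 in UV and −0.29 in control, where TMM gave −0.01 in UV and −0.04 in control. The split of all calls into higher and lower in IP was 6179 and 6092 in UV with TMM, against 4574 and 7460 with library size only. In control it was 6144 and 6451 with TMM, against 3850 and 8836 with library size only. Under library size only, Polh and Poli were still called in UV, and 0 of the 6 genes were called in control.

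The enrichment was not called different between UV and control for any of the 6 genes other than Polk, in a background of 0.012% of all genes tested (3 genes, or 399 with the sample block). By edgeR their adjusted p was 1.00, 0 had an unadjusted p below 0.05, and neither DESeq2 nor the sample block called any. The differences of log2 ratio, UV minus control, were −0.09 (SE 0.13) for Rev1 and 0.08 (SE 0.18) for Poli, and 0.00 (SE 0.19) for Polh. The others were −0.05 (SE 0.12) for Rev3l, −0.05 (SE 0.18) for Rad18 and −0.03 (SE 0.33) for Mad2l2. For Polk, given as a description, it was −0.08 (SE 0.13), beside its 2.44-fold difference in input.

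**Figure D3:**
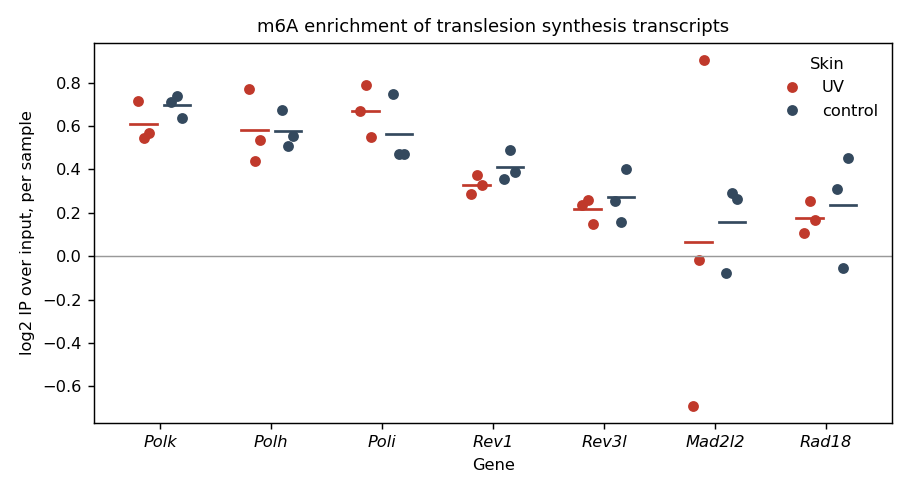
The log2 ratio of IP to input for each gene in each sample, UV in red left of control in grey, with bars at the mean of 3 samples. Polk, Polh, Poli, Rev1 and Rev3l lie above 0 in all 6 samples, and Mad2l2 ranges from −0.69 to 0.90 in UV.

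The authors called 37 peaks in these genes, 20 in UV and 17 in control, out of 42989 peaks in all; overlapping peaks merge into 22 regions, of which 11 held peaks of both conditions, 9 of UV only and 2 of control only. UV-only regions made up 40.9% of these and 37.4% of the 27113 regions of all genes, so the share lay near that of the whole table, and a listing in 1 condition is no test of a difference. Mad2l2 had 0 peaks. Positions are on GRCm38, counted from 1, and exons are numbered from the 5′ end of the merged gene model. Whether a peak lies in coding or untranslated sequence is not analysed here.

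The Polk peaks lay in the last 3 of its 16 exons. The longer UV peak, chr13:96482158-96484020, covered 661 exon bases of exons 14 to 16, and a second UV peak, chr13:96484200-96484320, lay in exon 14, which has 915 bases. The control peaks, chr13:96482188-96483690 and chr13:96483780-96484050, overlapped the longer UV peak. In that longer window input held 14.99, 14.97 and 13.6 CPM in UV and 6.83, 5.51 and 6.08 CPM in control. Its log2 ratio of IP to input was 1.34, 1.07 and 1.25 in UV samples and 1.17, 1.40 and 1.26 in control samples. The window thus had higher counts in UV input, and its enrichment values overlapped between the conditions. Polk peaks were not tested, and their differences of log2 ratio ran from −0.05 (SE 0.16) to 0.23 (SE 0.68).

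All 3 Polh peaks lay in its last exon, of 1093 bases, and 4 of 6 Poli peaks lay wholly or partly in the last exon, with the other 2 in the first exon of the deposited model. That Poli model ends at 70530620 on its 5′ side, where RefSeq reaches 70534950, so its first exon may not be that of the gene. Of the 15 Rev3l peaks (9 in UV, 6 in control), 12 lay in exon 14, whose 4153 bases make it the longest exon of the gene, 2 in exon 15 and 1 in exon 1. Rev1 differed in position, with 5 peaks (2 in UV, 3 in control) that lay within its first 8 of 25 exons. Rad18 had 4 peaks, 1 per condition in exon 5 and 1 per condition in its last exon, 14. The Rev1 window chr1:38108412-38128268, which spans introns, had log2 ratios of IP to input below 0 in all 6 samples. They ran from −0.67 to −0.47 in UV and −0.55 to −0.19 in control. Only 150 of the 6168 exon bases lie in this window, and it averaged 16.1 CPM in UV input, beside 33.1 CPM for the gene. In control input it averaged 11.1 CPM, beside 23.5 CPM for the gene. Whether counts in such windows hold intron reads is not given in the sources used here and was not tested.

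Of the 33 peaks in genes other than Polk, 31 were tested for a change of enrichment and 0 were called by edgeR, as were 0% of all 39910 peaks tested (348 peaks with the sample block, none of them in these 6 genes); 2 had an unadjusted p below 0.05, both in Polh. The smallest adjusted p was 0.617, for the Polh control peak at chr17:46172004-46172213. There the log2 ratio was 2.15, 1.84 and 1.74 in UV samples and 2.58, 2.43 and 2.35 in control samples, a difference of −0.52 (SE 0.24). The neighbouring Polh UV peak at chr17:46172512-46172691 had a difference of the other sign, 1.28 (SE 0.60, adjusted p = 0.619), on 3 to 13 reads per UV input library. In the authors' deposited table the smallest FDR among these peaks was 0.870.

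**Figure D4:**
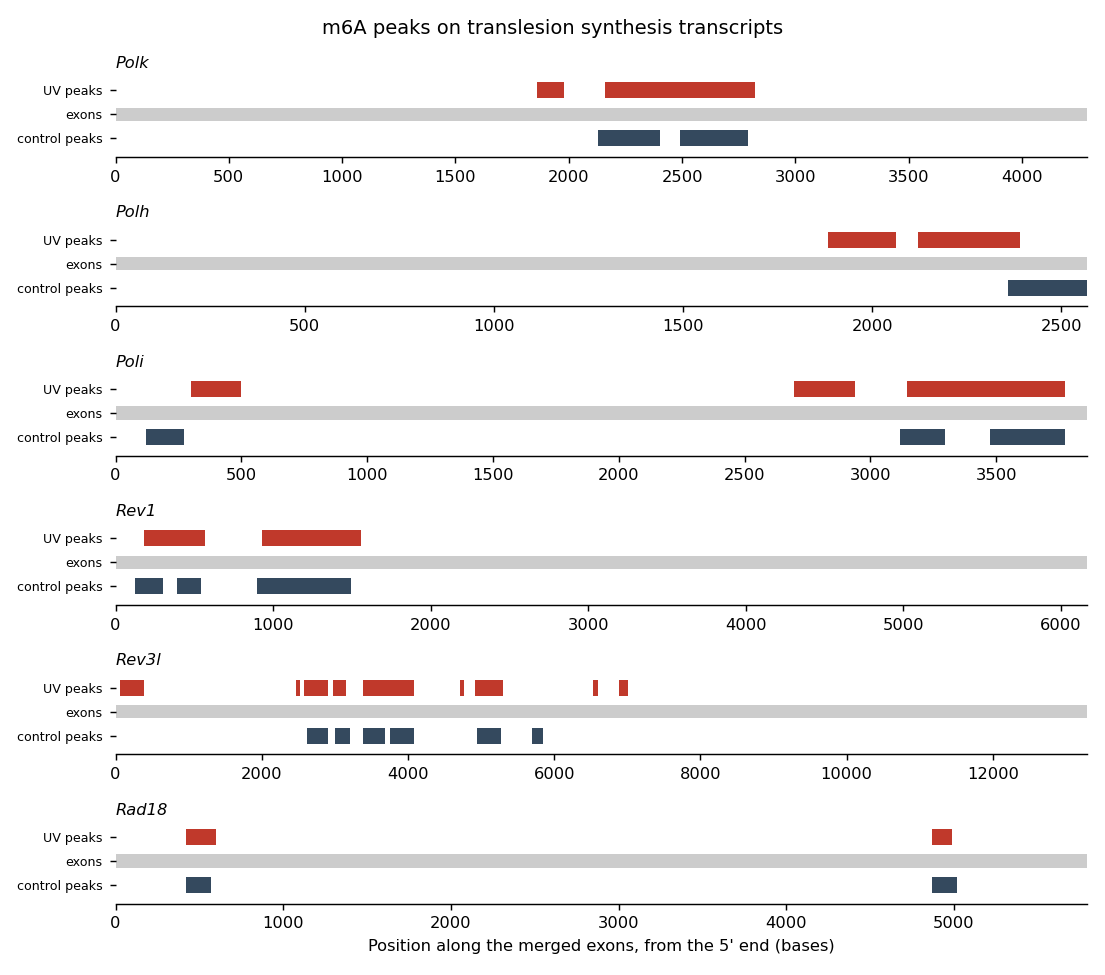
Peaks called by the authors in UV (red, above) and control skin (dark, below) along the merged exons (grey) of the 6 genes that had any, in bases from the 5′ end. Rev1 peaks crowd the 5′ end, Polh peaks the 3′ end, and Rev3l peaks lie mostly within exon 14.

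The genes whose levels over the 6 input libraries were most like those of Polk were picked by Pearson's r of log2 CPM among 10700 genes with a mean of at least 5 CPM. The 6 points fall into 2 groups of 3 libraries and share library depth, and r is a description without a p. The highest were Vps36 (r 0.998), Aaas (0.997), Map6 (0.996), Pxmp4 (0.996) and Rassf9 (0.996). Of these Aaas, a nuclear pore gene, averaged 18.6 ± 0.36 CPM in UV input and 9.06 ± 0.84 CPM in control input (SD, n = 3), while Vps36 averaged 68.2 ± 0.95 CPM in UV input and 53.3 ± 0.88 CPM in control input (SD, n = 3). The most opposite were Lgi4 (r −0.996), Tle4 (−0.995), Lrba (−0.995), Slc24a3 (−0.994) and Vps13b (−0.994). Slc24a3, an ion exchanger, averaged 4.44 ± 0.61 CPM in UV input and 17.4 ± 1.6 CPM in control input (SD, n = 3). Among the other translesion genes r with Polk was 0.94 for Rev1 (rank 448), 0.70 for Rad18, −0.10 for Polh, −0.66 for Rev3l and −0.70 for Poli; Mad2l2 was below 5 CPM and was not compared.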

How the data were processed

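Mouse skin labelled UV light or control (3 samples each) gave 12 libraries, an IP and an input per sample, made with a stranded mRNA kit per the labels' protocols. Reads were aligned with STAR 2.5.3a and the build was GRCm38, as far as the submitters' processing notes list them. The authors deposited raw read counts per gene and per peak, with no normalization. Per the file headers the authors also deposited, per peak, a log2 fold change and a p-value with its FDR for the change of enrichment. Not given in the sources used here: the read counter, its use of strand, the peak caller and the test behind the deposited p-values. Of the counts from 1 to 20, 79.5% to 83.6% per library were even, a share that separate counting of mates would give; counts divided by 2 were tried as an alternative.

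Samples were grouped by their treatment label. Counts were scaled with TMM, filtered with filterByExpr and tested on all genes in edgeR 4.0.16 (limma 3.58.1, R 4.3.3) by quasi-likelihood, at a Benjamini-Hochberg adjusted p below 0.05. UV and control were compared within input and within IP (6 libraries each). IP was compared with input in a fit of 4 group means over 12 libraries, with the interaction as the change of enrichment, also per peak. Polk is left out of the counts of called genes. The input comparison and the interaction were also run on simulated counts, in which all libraries were independent. Those counts lacked the pairing of IP with input, so they cannot show how the fit handles it. Alternatives were library size scaling, DESeq2 1.42.0, no low-count filter, a replicate block, counts divided by 2 and leaving out each sample. Libraries held 24126662 to 92163619 reads in genes. Replicates differed beyond counting noise (chi-square per degree of freedom 48.0 to 167), and no libraries were merged.

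IP and input libraries with 1 sample number deviated from their group means together (r 0.605 to 0.874 over 11929 genes) and those of different numbers did not (−0.704 to −0.164), so the number pairs IP with input. The same number in UV and control did not pair samples.

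The genes and lists were chosen with earlier results of these data known. Named were the 7 genes and their peaks, any called gene of the pathway lists, 6 partners (Pcna, Ube2a, Ube2b, Usp1, Pold2, Pold3) and the 5 genes most and least like Polk over input libraries, leaving out Gm and Rik names; Pola1, Champ1 and single peaks were singled out after their values were seen. Shld1 and Shld2 were found under older symbols, and Shld3 was not matched. Log2 ratios of IP to input per peak and sample need at least 10 reads in both libraries.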

Additional observations from a re-analysis of the deposited data

How the results depend on the processing

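Over 11 alternatives per comparison, values of the 6 genes other than Polk kept their direction and side of the threshold in 283 cases, lost a call in 15, gained one in 8 and changed sign in 24. The count of called genes among the 6 in UV against control input was 0 with library size only and 0 with the replicate block, and 0 to 2 when single samples were left out. In IP it was 1 with DESeq2 and 1 without the low-count filter, and 0 to 1 when single samples were left out. For IP against input in control it was 4, against 0 with library size only, 5 with the replicate block and 3 to 5 when single samples were left out. For IP against input in UV it was 3, against 2 with library size only, 4 with the block and 2 to 4 when single samples were left out. The pathway count in input was 1 with DESeq2 and 1 without the filter, and 0 to 2 when single samples were left out (control 2 gave 2, control 3 gave 1). The rank of Polk in UV input was 3 without length scaling. The replicate block between UV and control rests on numbers that did not pair samples (input correlations −0.10, 0.12 and −0.26); with it the adjusted p of Rev1 in input was 0.0557, and 713 of all genes were called against 1404. Between IP and input, where numbers do pair, it added the calls named above and changed no other.

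Sign changes, all at values that were not called: leaving out single samples moved Polh between −0.12 and 0.0343 in input and between −0.14 and 0.0889 in IP, and Mad2l2 IP over input in UV between −0.34 and 0.45. Library size only turned Mad2l2 IP over input to −0.0613 in UV and −0.11 in control, and Rad18 in control to −0.0285. For the change of enrichment, Polh was −0.0136 with DESeq2, −0.0047 without the filter and −0.0155 with the replicate block, and −0.0952 to 0.0801 when samples were left out. With library size only that change was 0.0104 for Rev1, 0.0502 for Rev3l, 0.0505 for Mad2l2 and 0.0531 for Rad18, and for Polk, which was not tested, 0.0127 against −0.08 with TMM. Leaving out samples gave −0.11 to 0.0117 for Rev3l, −0.48 to 0.31 for Mad2l2 and −0.20 to 0.0606 for Rad18. The cause of these shifts was not tested.

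Counts over all genes moved too. UV against control input had 1404 calls, against 2576 with DESeq2, 2152 without the filter, 219 to 2100 when samples were left out (219, 319, 336 and 446 without UV 1, UV 2, UV 3 and control 1); the split was 728 higher and 676 lower with TMM, against 455 and 1019 with library size only, which moved the median log2 change to −0.12. IP had 570 calls, against 1362 with DESeq2, 1426 without the filter, 247 with the replicate block and 67 to 1248 when samples were left out. The change of enrichment had 3 calls, against 50 with DESeq2, 22 without the filter and 399 with the block, and 0 to 7 when samples were left out. Peaks had 0 calls, against 12 with DESeq2 and 348 with the block, and 0 to 4 when samples were left out. Some short peaks held under 10 reads per library.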

Other observations

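The 3′ end of Polh, chosen after its values were seen, differed from the rest of the gene in input. The window of the control peak at the very end of the deposited gene model (chr17:46172004-46172213) held 72, 104 and 118 reads in UV input, or 2.04, 2.04 and 1.89 CPM, and 87, 32 and 87 reads in control input, or 1.40, 1.23 and 1.51 CPM. UV input was thus 1.44 times control input there without overlap, while the gene as a whole averaged 7.45 ± 0.79 CPM in UV and 7.63 ± 0.60 CPM in control (SD, n = 3). The next window upstream held 0.266 CPM in UV input and 0.330 CPM in control input on average, and its groups overlapped. The deposited gene model stops 649 bases short of the 3′ end that RefSeq gives for Polh. The difference was not tested.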
